A study of Mus musculus with 3 samples.

Results

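The globin and heme synthesis genes of the mouse heart were 9 rows of a table of 16587 genes, chosen by symbol. They were the muscle globin Mb, the widely expressed globin Cygb, the adult hemoglobin chains Hba-a1, Hba-a2, Hbb-bs and Hbb-bt, and the heme enzymes Alas1, Alas2 and Fech. Hearts of male wild-type (WT) mice, 12 weeks old, were used to make 3 poly(A) RNA libraries. These form a single group, with no treatment or other genotype. The labels name neither the strain nor separate animals, so p-values here speak of the spread between libraries alone, which may be technical.

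Heme is an iron-bearing ring that globins use to hold oxygen. Myoglobin is made by muscle cells and is known for storing oxygen and easing its diffusion to mitochondria. Hemoglobin is made by red-cell precursors, and circulating red cells have no nucleus but, while young, still carry its mRNA. Heme synthesis begins and ends in the mitochondrion: an ALA synthase starts it, with Alas1 as the form of most tissues and Alas2 as the red-cell form, and ferrochelatase (Fech) inserts the iron.

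Library totals were 25311388, 26398140 and 24914479 counts. The heart label was checked with 12 cardiomyocyte genes, all of which reached 1 CPM (a gene's count divided by the library's total count and multiplied by 1000000) in every library and together made up 105767, 102132 and 104746 CPM in libraries 1, 2 and 3. All 9 globin and heme genes passed the filter on low counts.

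Within each hemoglobin family the copies were almost the same sequence, which bears on how far their counts can be separated. In the GENCODE M21 transcripts, the coding sequences of Hba-a1 and Hba-a2 (426 bases without the stop codon, chromosome 11) differed at 1 base, C381T from Hba-a1 to Hba-a2. Those of Hbb-bs and Hbb-bt (441 bases, chromosome 7) also differed at 1 base, C417T from Hbb-bs to Hbb-bt. Positions count from the A of the start codon. The stretches around these bases are shown 5′ to 3′ in the sense of the mRNA, with the differing base in capitals.
Hba-a1, coding bases 351 to 411: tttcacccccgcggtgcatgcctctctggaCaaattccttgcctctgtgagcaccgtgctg
Hba-a2, coding bases 351 to 411: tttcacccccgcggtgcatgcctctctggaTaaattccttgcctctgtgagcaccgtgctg
Hbb-bs, coding bases 381 to 441: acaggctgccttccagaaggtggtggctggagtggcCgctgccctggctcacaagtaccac
Hbb-bt, coding bases 381 to 441: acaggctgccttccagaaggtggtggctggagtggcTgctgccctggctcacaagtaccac
Most of the distinguishing sequence therefore lay outside the coding part. Of all 100-base stretches in the main annotated transcript, 56.5% for Hba-a1 and 74.5% for Hba-a2 occurred unchanged in the other copy. For Hbb-bs and Hbb-bt the shares were 62.6% and 54.8%. The labels give no read length, and with stretches of 50 bases the shares were 67.5%, 86.9%, 65.8% and 58.3% in the same order. Counts of single copies are uncertain for this reason, and the family sums are given beside them. The labels do not say whether reads matching both copies were kept. If they were dropped, the sums would be lowered too, and not equally between families.

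The 250 bases upstream of the start of 3 hemoglobin genes and Alas2 are shown because these genes moved together between libraries, as described below. Capitals mark the motif GATAA, the core that factors such as the red-cell regulator GATA1 are known to bind. They also mark the motif CACCC, known from sites of the red-cell regulator KLF1. Both strands were searched, and a match on the other strand appears as the reverse complement. The sequences are from RefSeq, build GRCm38.p6, written in the direction of transcription.
Hba-a1, chr11:32283422-32283671, plus strand: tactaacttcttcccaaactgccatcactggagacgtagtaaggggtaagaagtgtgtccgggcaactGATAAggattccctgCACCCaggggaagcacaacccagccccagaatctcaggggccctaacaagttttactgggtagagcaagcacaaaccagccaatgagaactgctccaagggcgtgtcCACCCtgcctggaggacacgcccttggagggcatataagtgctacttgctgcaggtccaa
Hbb-bs, chr7:103827929-103828178, minus strand: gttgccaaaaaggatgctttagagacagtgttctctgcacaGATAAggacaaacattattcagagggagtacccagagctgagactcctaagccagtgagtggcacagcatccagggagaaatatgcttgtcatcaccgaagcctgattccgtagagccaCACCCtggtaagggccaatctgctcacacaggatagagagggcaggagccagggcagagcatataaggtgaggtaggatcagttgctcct
Hbb-bt, chr7:103813924-103814173, minus strand: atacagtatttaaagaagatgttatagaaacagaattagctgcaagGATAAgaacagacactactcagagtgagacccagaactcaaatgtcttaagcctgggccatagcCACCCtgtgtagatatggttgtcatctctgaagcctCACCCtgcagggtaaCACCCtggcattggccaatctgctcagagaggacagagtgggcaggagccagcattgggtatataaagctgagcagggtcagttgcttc
Alas2, chrX:150547167-150547416, plus strand: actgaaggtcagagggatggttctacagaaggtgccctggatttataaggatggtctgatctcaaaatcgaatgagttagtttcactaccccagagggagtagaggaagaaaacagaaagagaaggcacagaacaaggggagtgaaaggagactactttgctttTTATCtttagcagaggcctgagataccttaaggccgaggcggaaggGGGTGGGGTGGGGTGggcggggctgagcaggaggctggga
A promoter entry was matched for 7 of the 9 genes (all except Cygb and Fech). The Hba-a2 window shared 247 of its 250 bases with that of Hba-a1 as 1 identical run, shifted by 3 bases. GATAA occurred once in the window of each of the 5 red-cell genes and in none of the 3 Mb windows or the 2 Alas1 windows. Its distance from the start differed, with first bases at -182 in Hba-a1, -209 in Hbb-bs, -204 in Hbb-bt and -86 in Alas2, where it was on the other strand. CACCC occurred in all 5 red-cell windows, 3 times in a row in Alas2, and also in both Alas1 windows and 2 of the 3 Mb windows. Over 32851 RefSeq windows of the same length, 22.6% held GATAA, 52.0% held CACCC and 10.1% held both, on either strand. The motif CCAAT, known from general promoters, was also searched and occurred in all 4 hemoglobin windows and all 3 Mb windows, against 33.8% of all windows. TATAA occurred in all 4 hemoglobin windows, with a first base between -30 and -27 in each, and farther upstream in Alas2, against 22.8% of all windows at any place. GATAA and CACCC did not overlap in the windows shown, and a match describes letters, not a bound site. Because the motifs were picked after the printed sequences were seen, the shares over all windows are a background and not a test. The windows are also not independent, since the genes of a hemoglobin family are close copies. In addition, 2 of the 3 Mb windows overlap, and their CACCC and CCAAT matches are the same sites. Whether the motifs bear on the movement between libraries was not tested.

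Myoglobin was the highest per length of the 16077 genes with a length. Mb, on chromosome 15, had 602026, 656965 and 534093 counts in libraries 1, 2 and 3, or 2.38%, 2.49% and 2.14% of all counts. The libraries stood close together, with library 2 highest and library 3 lowest, 1.16-fold apart. In TPM, which divides each count by the exon length of the gene before scaling to 1000000, Mb averaged 46894 ± 2354 (SD, n = 3) and ranked first. Set against the summed cardiomyocyte genes of the same library, its log2 ratio per kilobase was -1.40, -1.36 and -1.50, so that it held close to 0.374 times that sum.

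**Figure D1:**
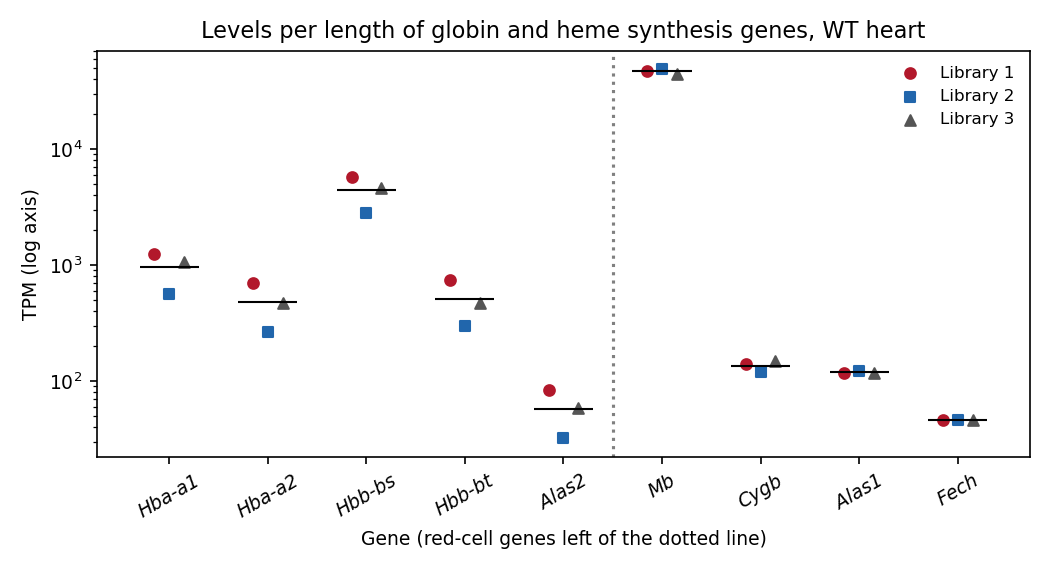
Levels of the 9 genes in TPM on a log axis, with a point for each of the 3 libraries and a bar at their mean; red-cell genes are left of the dotted line. Mb sits near 46894 TPM, more than any other gene, and each red-cell gene is highest in library 1 and lowest in library 2.

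Cygb, the other globin known from tissue cells, was far lower. It is known from fibroblasts and related stromal cells and for handling nitric oxide, and had 110, 94.4 and 113 CPM, with library 2 lowest. It averaged 136 ± 15.8 TPM (SD, n = 3) and ranked 979th. Mb exceeded Cygb per kilobase by a log2 ratio of 8.40, 8.69 and 8.21 in the 3 libraries, 8.43 ± 0.24 on average (346-fold). In libraries 1, 2 and 3 the 10 fibroblast genes summed to 3479, 3652 and 3779 CPM, an order that Cygb did not share.

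Adult hemoglobin mRNA was present in every library at a lower level than Mb and varied more. The 4 genes together had 54517, 26952 and 41148 counts in libraries 1, 2 and 3, which was 0.215%, 0.102% and 0.165% of all counts. Library 1 was thus highest at 2.11-fold over library 2, with library 3 between them at 1.62-fold over library 2. In bulk tissue, more red cells and more hemoglobin mRNA per red cell cannot be told apart.

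Hbb-bs, a beta chain, carried most of this signal. It had 1479, 734 and 1162 CPM in libraries 1, 2 and 3, and 68.7%, 71.9% and 70.3% of the summed hemoglobin counts. Its level of 4402 ± 1488 TPM (SD, n = 3) placed it 22nd of all genes. The other beta chain, Hbb-bt, had 177, 71.3 and 108 CPM. Its share of the family was small in every library, since Hbb-bs exceeded it per kilobase by 7.65-, 9.42- and 9.88-fold.

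The alpha chain Hba-a1 had 342, 155 and 280 CPM. Hba-a2, whose coding sequence is shown above to be nearly the same, had 157, 60.2 and 102 CPM. Hba-a1 was higher per kilobase in all 3 libraries, by 1.79-, 2.12- and 2.25-fold. As a family, Hba stood below Hbb, with log2 ratios of summed counts per kilobase of -1.73, -1.91 and -1.74, or -1.79 ± 0.10 (SD, n = 3). Although hemoglobin protein pairs alpha with beta chains, the deposited counts assigned the beta genes several times the alpha level in each library.

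The red-cell ALA synthase followed the hemoglobin genes. Alas2, on the X chromosome, had 1706, 696 and 1131 counts, or 67.4, 26.4 and 45.4 CPM in libraries 1, 2 and 3. Exact 95% Poisson intervals of these values were 64.2 to 70.7, 24.4 to 28.4 and 42.8 to 48.1 CPM, and they did not overlap. Library 1 stood 2.56-fold above library 2 for Alas2, within the span of the hemoglobin genes, which ran between 2.01-fold for Hbb-bs and 2.60-fold for Hba-a2. The summed hemoglobin genes stayed at 101, 122 and 114 times Alas2 per kilobase, a narrower span than either showed alone.

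Against genes of their own level, 5 of the 9 genes differed between the libraries by edgeR's negative binomial deviance with Benjamini-Hochberg adjustment, where 0.591% of the 12521 genes tested did (74 genes). They were Hba-a2 (adjusted p = 5.25e-10), Hbb-bt (1.37e-09), Hba-a1 (1.45e-07), Alas2 (1.92e-07) and Hbb-bs (5.94e-06). At an unadjusted p under 0.05 by edgeR there were also 5 of 9, against 5.39% of all genes tested. These 5 are the red-cell genes, and each was highest in library 1 and lowest in library 2, an order that 14.3% of all genes tested had. A call together with this order was seen in 0.184% of all genes tested (23 genes). When the copies were summed to 1 row per family, Hba (adjusted p = 7.86e-09), Hbb (2.07e-06) and Alas2 (2.15e-07) passed. The median SD of log2 CPM was 0.51 over the 9 genes and 0.14 over all genes tested.

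Most of these calls were lost without library 1 or without library 2. Leaving out library 1 kept Hba-a1 (edgeR adjusted p = 0.00845) and lost Hba-a2 (0.0923), Alas2 (0.179), Hbb-bs (0.198) and Hbb-bt (0.411). Leaving out library 2 kept Hbb-bt (edgeR adjusted p = 0.0128) and lost Hba-a2 (0.0839), Alas2 (0.287), Hbb-bs (0.759) and Hba-a1 (0.999). Leaving out library 3 kept all 5, so the difference between libraries 1 and 2 was the one that passed for every red-cell gene.

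The other 4 genes did not pass the test. Mb, Cygb, Alas1 and Fech each had an edgeR adjusted p of 0.999, with unadjusted p of 0.331, 0.340, 0.633 and 0.844. Their SD of log2 CPM was 0.11, 0.14, 0.07 and 0.04, against 0.51 to 0.69 for the red-cell genes. Fech was among the steadiest genes in these 3 libraries, with only 6.08% of genes tested having a smaller SD. That rank was not matched for count level. On a log2 scale the hemoglobin sum of library 1 exceeded that of library 2 by 1.08 in CPM, by 1.08 with TMM-scaled library sizes and by 1.03 relative to the summed cardiomyocyte genes.

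**Figure D2:**
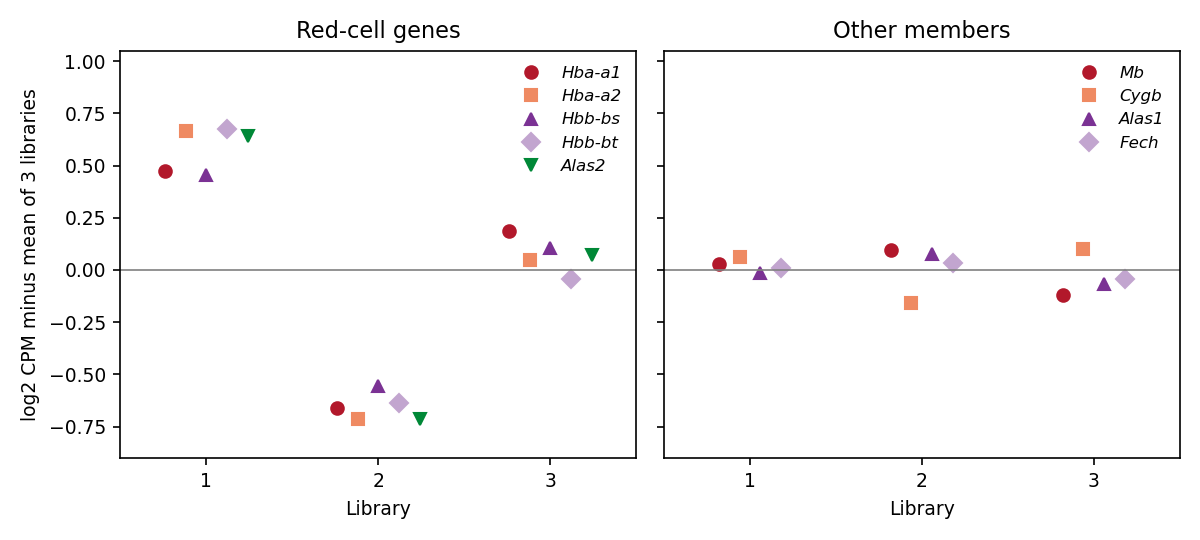
Deviation of log2 CPM from each gene's mean over the 3 libraries, by library, for the 5 red-cell genes (left) and the other 4 genes (right). Red-cell genes lie between 0.45 and 0.68 in library 1 and between -0.71 and -0.56 in library 2, while the other genes stay between -0.16 and 0.10.

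Because library size cancels inside a library, heart-made myoglobin was compared with the red-cell globins as a ratio. Mb exceeded the summed adult hemoglobin genes per kilobase by 5.63-, 12.5- and 6.64-fold in libraries 1, 2 and 3. The log2 ratio was 2.49, 3.64 and 2.73, or 2.95 ± 0.60 (SD, n = 3). Myoglobin was thus higher in 3 of 3 libraries, and its lead was largest in library 2, where hemoglobin was lowest. The coefficient of variation of CPM was 7.54% for Mb and 35.3% for the hemoglobin sum. An exact two-sided sign-flip test over 3 libraries cannot give a p below 0.25, so ratios are given without a test.

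**Figure D3:**
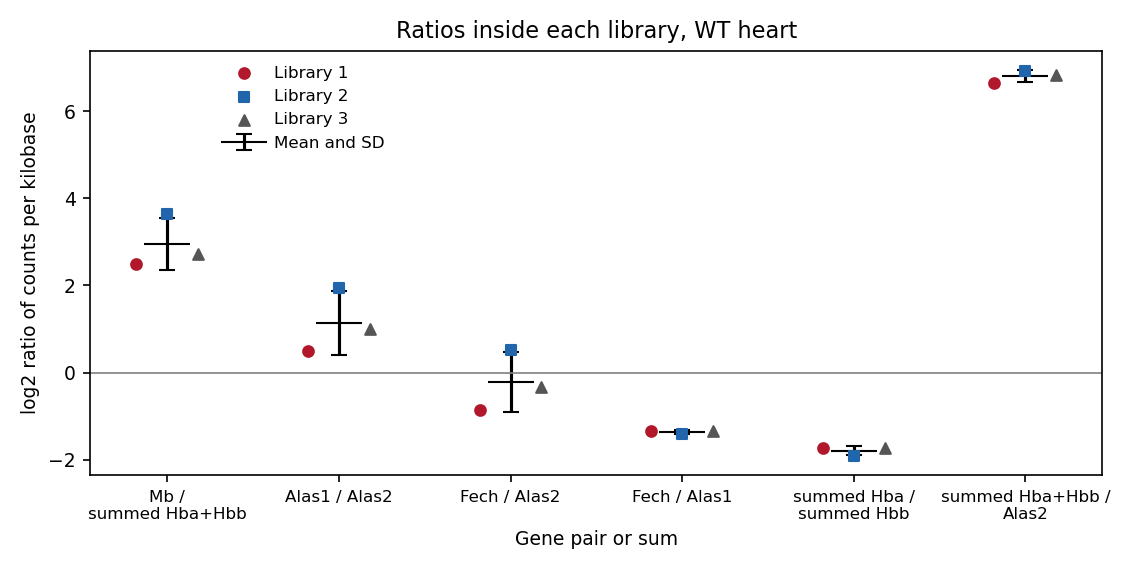
Log2 ratios of counts per kilobase inside each library, with points for the 3 libraries and a bar and whiskers for their mean and SD. Ratios of Mb, Alas1 or Fech over hemoglobin or Alas2 are highest in library 2, while Fech over Alas1 stays near -1.36 and summed Hba over summed Hbb near -1.79.

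Of the ALA synthases, Alas1 was the higher form in every library. Alas1, on chromosome 9 and known as the regulated first step of heme synthesis in most tissues, had 243, 259 and 234 CPM in libraries 1, 2 and 3. Its log2 ratio to Alas2 per kilobase was 0.49, 1.93 and 1.01, or 1.14 ± 0.73 (SD, n = 3). It accounted for 58.4%, 79.3% and 66.8% of ALA synthase counts per kilobase, lowest in library 1, where Alas2 was highest.

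Ferrochelatase gave 215, 218 and 207 CPM in libraries 1, 2 and 3. Fech lies on chromosome 18 and serves both the red-cell and the general pathway. Its distance from Alas1 varied little, with a log2 ratio per kilobase of -1.34, -1.41 and -1.34 (-1.36 ± 0.04, SD, n = 3). Set against Alas2 the ratio was -0.85, 0.52 and -0.34, so Fech was lower in libraries 1 and 3 and higher in library 2, and its mean of -0.22 ± 0.69 gave no order. Gene length decides this comparison, since the joined exons of Fech span 13838 bases and its longest transcript 6571 bases, and the mean ratio was 0.61 with the longest transcripts.

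Enzymes along the heme pathway were expressed, with all 8 described here at 1 CPM or more in every library. One of the 8, Alas2, differed between the libraries by edgeR. Per length the order was Alas1 (119 ± 3.23 TPM), Alad (77.1 ± 6.27), Urod (69.0 ± 3.31), Alas2 (58.0 ± 25.8), Fech (46.2 ± 0.0858), Uros (25.5 ± 2.65), Cpox (17.7 ± 1.42) and Ppox (8.16 ± 0.756 TPM, SD, n = 3). Alad joins the first precursors into a pyrrole ring, Uros closes the large ring, and Urod, Cpox and Ppox trim and oxidise it. Library values overlapped between Alad and Urod, Urod and Alas2, and Alas2 and Fech, and each of the other neighbours was higher than the next in 3 of 3 libraries. With the longest transcripts as lengths Alas1 stayed first (160 TPM) and Ppox last (6.18 TPM), while Urod (88.8 TPM) and Fech (71.9 TPM) stood above Alad (60.3 TPM).

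**Figure D4:**
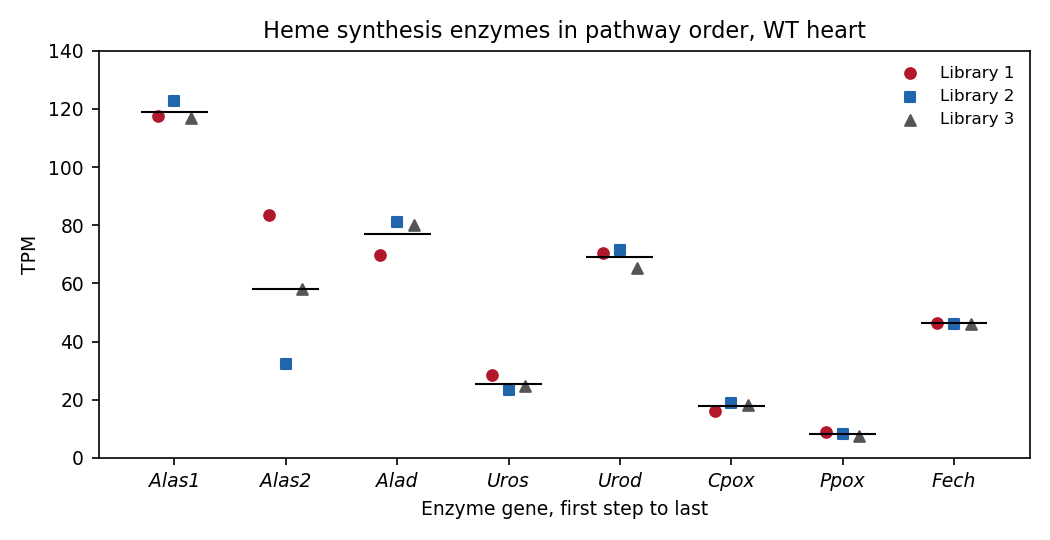
TPM of 8 heme synthesis enzymes in the order of the pathway, with both ALA synthases first; points are the 3 libraries and bars their mean. Alas2 spreads from 32.1 to 83.6 TPM, while Alas1 stays between 117 and 123 TPM.

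Genes that supply and move the intermediates of heme synthesis had a median SD of log2 CPM of 0.13, against 0.14 over all genes tested. All 20 of them reached 1 CPM in every library, and 0 differed by edgeR after adjustment, with 0 by DESeq2's dispersion trend and 0 at an unadjusted edgeR p under 0.05. The highest were the mitochondrial carrier Slc25a39 (154 ± 5.65 CPM), known for glutathione import, Clpx (83.2 ± 9.31 CPM), a chaperone known to act on ALA synthase, the heme transporter Slc48a1 (79.6 ± 1.24 CPM) and Pgrmc2 (60.4 ± 2.48 CPM, SD, n = 3), a heme chaperone. Slc25a38, the glycine carrier tied to red-cell heme synthesis, had 28.6, 21.7 and 26.6 CPM, and Slc25a37 (mitoferrin 1), the iron carrier of red-cell precursors, 16.6, 14.7 and 14.0 CPM. Neither passed the test. The 4 cytochrome b5 and reductase genes, known to return oxidised globin to its oxygen-binding form, likewise held 0 calls, with 0 by DESeq2's dispersion trend and 0 at an unadjusted edgeR p under 0.05, and were led by Cyb5r3 (160, 157 and 175 CPM).

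Heme breakdown genes were also present. Hmox2, the constitutive heme oxygenase, had 89.8, 90.1 and 81.4 CPM, and Hmox1, its inducible form, 28.6, 29.2 and 33.0 CPM in libraries 1, 2 and 3. Of the 8 breakdown and scavenging genes tested, 1 passed by edgeR, the plasma hemoglobin binder Hp (280, 42 and 46 counts, adjusted p = 1.14e-08). The plasma heme binder Hpx had 206, 0 and 6 counts and did not pass the filter on low counts. Both are liver-made proteins and were highest in library 1. As a list, the 13 liver genes gave a total of 227, 69.1 and 93.4 CPM over libraries 1, 2 and 3. Albumin (Alb) had 1447, 0 and 29 counts in libraries 1, 2 and 3. Of the 13, 12 were highest in library 1, for which no share over all genes was computed. The order of the hemoglobin genes held for 10 of 13. Some of these were near 0 in libraries 2 and 3, such as Apoa1 with 444, 1 and 2 counts. Transferrin (Trf) made up 83.1, 65.2 and 85.5 CPM of these totals, and the other 12 genes summed to 144, 3.86 and 7.87 CPM. Without Trf the list stood 18.3-fold higher in library 1 than in library 3, against 1.30-fold for the hemoglobin sum. Of 5 liver genes tested, 3 had the order of the hemoglobin genes, against 14.3% of all genes tested. By edgeR 4 of the 5 passed, against 0.591% of all genes tested. The macrophage receptor Cd163, which takes up hemoglobin bound to haptoglobin, had 27.2, 41.5 and 40.1 CPM and did not pass (edgeR adjusted p = 0.449).

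Several regulators of red-cell genes were at or near 0. No count was seen for Gata1 or Gfi1b, for which the upper limit, taken as 3 counts, was 0.119, 0.114 and 0.120 CPM in libraries 1, 2 and 3. Klf1 had 3, 5 and 1 counts. Of 13 regulators, 9 were tested and 0 passed by edgeR after adjustment and 0 by DESeq2's dispersion trend, with 1 at an unadjusted p under 0.05 by edgeR, Ppargc1a (218, 193 and 295 CPM). Ppargc1a is a coactivator known to induce Alas1 in mouse liver, and the repressor Nr1d1, known to act on Alas1, had 107, 129 and 128 CPM. Among these regulators Zfpm1 (43.6 ± 1.65 CPM) and Eif2ak1 (40.3 ± 3.56 CPM, SD, n = 3), the heme-regulated kinase of translation, came next.

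Other globins were low. Ngb, the nerve-cell globin, had 0 counts in every library, Adgb 2, 0 and 0, Hbq1a 3, 0 and 1, and Hbq1b 8, 6 and 4 counts. None of these 4 reached 1 CPM or passed the filter, and the other 4 globins listed were not analysed here.

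Further red-cell genes were examined for the same pattern. Of 26 listed, 23 were in the rows analysed and 15 were tested. The anion exchanger Slc4a1 had 45, 34 and 29 counts in libraries 1, 2 and 3, and the alpha-globin chaperone Ahsp had 12, 0 and 1. Car1, Ermap and Hemgn had 0 counts in all libraries. Of the 15 tested, 5 had the order of the hemoglobin genes, against 14.3% of all genes tested. By edgeR 1 of the 15 passed, against 0.591% of all genes tested, and 0 passed by DESeq2's dispersion trend. The summed list stood at 988, 1021 and 977 CPM, with no such order. Ank1 (505 ± 47.9 CPM) weighed heavily on this sum, with 477, 561 and 479 CPM in libraries 1, 2 and 3. The sum without Ank1 was not examined. Next came Sptb (216 ± 11.5 CPM), Bnip3l (67.7 ± 2.50 CPM) and Bpgm (43.5 ± 3.92 CPM). Ank1 and Sptb are known from muscle too.

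Markers of other blood cells were also examined. In libraries 1, 2 and 3 the 10 platelet genes summed to 43.7, 28.4 and 32.1 CPM, with 0 of 5 tested past the threshold by edgeR or DESeq2's dispersion trend, 1 at an unadjusted p under 0.05 by edgeR and none at 0 in every library. The platelet chemokine Pf4, with 31.2, 17.8 and 21.9 CPM, had the order of the hemoglobin genes and an edgeR adjusted p of 0.174. That order was seen in 3 of the 5 platelet genes tested, against 14.3% of all genes tested. Besides Pf4 these were Ppbp (64, 41 and 55 counts) and Itga2b (62, 32 and 32 counts). For Itga2b, libraries 2 and 3 were ordered only by their library totals. The 12 leukocyte genes summed to 24.2, 20.8 and 18.3 CPM. Of 3 tested, 0 passed by edgeR or DESeq2's dispersion trend, and 2 had an unadjusted edgeR p under 0.05, S100a8 (5.02, 2.88 and 1.77 CPM, SD of log2 CPM 0.75) and S100a9 (8.45, 7.01 and 3.21 CPM, SD of log2 CPM 0.74). Both were lowest in library 3, and Ly6g, Mpo, Cd3e and Ms4a1 had 0 counts throughout. In libraries 1, 2 and 3 the other heart cell lists summed to 1761, 1829 and 2119 CPM (8 pericyte and smooth muscle genes), 2698, 2738 and 3132 CPM (8 endothelial genes) and 1134, 1082 and 1070 CPM (10 macrophage genes). None of these 3 lists held an edgeR or DESeq2 dispersion trend call after adjustment, with 2, 0 and 2 genes at an unadjusted edgeR p under 0.05. Of the 10 fibroblast genes, 2 passed by edgeR, Col1a1 (adjusted p = 0.00613) and Col3a1 (7.19e-04). The part of blood content, and of the liver genes that were also highest in library 1, in the hemoglobin difference was not tested.

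**Figure D5:**
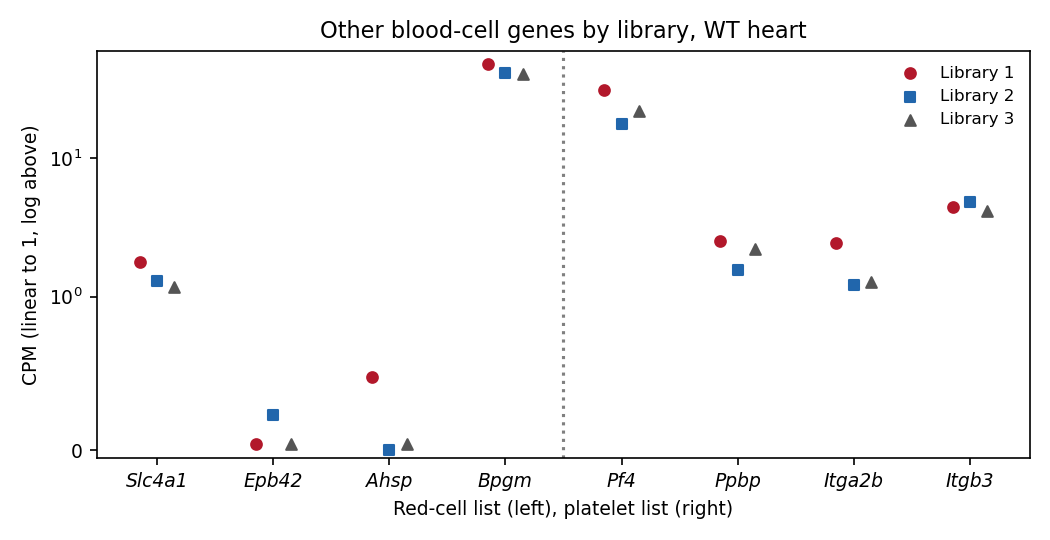
CPM by library of 4 red-cell genes (left of the dotted line) and the 4 highest platelet genes (right), on an axis that is linear up to 1 CPM and logarithmic above. Pf4 (31.2, 17.8 and 21.9 CPM), Ppbp, Itga2b and Ahsp have the order of libraries seen in hemoglobin, while Slc4a1, Epb42, Bpgm and Itgb3 do not. Itga2b had 32 counts in both library 2 and library 3, and Ahsp had 12, 0 and 1 counts.

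By distance between log2 deviations over the 3 libraries, the 5 genes nearest to the summed hemoglobin genes included Piga, Crmp1 and Lst1, at distances of 0.05 to 0.06. These 3 were low, with 15 to 69 counts per library, and none passed the edgeR test (adjusted p = 0.999 for each). Nearest to Mb were Lgals1, Asb18, Mrpl11, Uqcrq and Aim2, led by Lgals1 (394, 412 and 355 CPM). With 3 libraries such likeness rests on 3 values per gene and is a description only.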

How the data were processed

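For 16587 gene symbols in 3 libraries the authors deposited raw counts as whole numbers. HISAT2 2.0.4, Bowtie2 2.2.5, RSEM and the mouse build GRCm39 are listed, per the submitters' processing notes, without their roles or order. Because RSEM gives estimates, the deposited counts may be rounded estimates, which divide reads between similar genes.

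Counts were scaled to CPM and, with exon lengths from GENCODE M21 (build GRCm38, matched by symbol for 16077 genes), to TPM. Lengths joined all annotated exons of a gene. Log2 ratios had 0.5 counts added per gene. With 1 group no contrast was possible, so edgeR 4.0.16 fitted an intercept-only negative binomial model (TMM, trended dispersion, filterByExpr). The deviance of each gene gave a chi-square p, with Benjamini-Hochberg adjustment over 12521 genes at 0.05. Intervals are exact Poisson and cover counting error only. Alternatives were edgeR's RLE scaling, library totals, no filter, hemoglobin copies summed, other lengths, a pseudocount of 5 and leaving out each library. Another used the dispersion trend of DESeq2 1.42.0 with its size factors and a Pearson statistic in place of the deviance. DESeq2's own test was not run.

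The text names all 9 members. From each other list it was to name up to 4 members of highest mean CPM, up to 3 under 1 CPM in a library, and those past the threshold. The 5 genes nearest in pattern to the summed hemoglobin genes and to Mb are named by Euclidean distance of log2 deviations. The members, lists and tests were chosen with earlier results of these data known. Motifs were picked after the printed sequences were seen. The lists for fibroblast, pericyte and smooth muscle, endothelial and macrophage genes served as markers of other heart cells. Some listed genes, including a red-cell gene past the threshold, are not reported here.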

Additional observations from a re-analysis of the deposited data

How the results depend on the processing

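The count of members past the threshold was 5 of 9 in all 3 libraries by edgeR. It was also 5 of 9 under RLE scaling, library totals, no filter and DESeq2's dispersion trend with a Pearson statistic. It was 3 of 7 rows with the hemoglobin copies summed, where the rows are fewer by construction, and 1 to 5 when 1 library was left out. Over all genes the 74 calls became 126 with no filter and 17 to 51 when 1 library was left out. Mb, Cygb, Alas1 and Fech did not pass under any of the 8 alternatives. With no length correction the log2 ratios were 3.92 for Mb over summed hemoglobin, 2.50 for Alas1 over Alas2, 7.79 for Mb over Cygb and 2.30 for Fech over Alas2. With the longest transcripts Mb over Cygb was 8.87 and Fech over Alas2 0.61. Leaving out 1 library moved Fech over Alas2 between -0.59 and 0.093. Summed Hba over summed Hbb moved by less than its SD under all 6 alternatives, at -1.74 to -1.83 when 1 library was left out. None of these alternatives changed how reads shared between copies were counted. The denominators for the hemoglobin sum, the liver sum without Trf and the alternatives for the red-cell list were chosen after seeing the data. No paired analysis was possible because all 3 libraries form a single group. Depth did not limit the members, whose lowest count was 696, but it limits Ahsp, Klf1 and the other globins.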
